A study of Mus musculus with 6 samples.

Results

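The clock output factors of liver were read here as 9 genes, *Dbp*, *Tef*, *Hlf*, *Nfil3*, *Bhlhe40*, *Bhlhe41*, *Ciart*, *Rora* and *Usp2*, chosen by symbol from a table of 16123 genes. All 9 symbols were listed, and all 9 had a mean value of at least 10, the level from which genes were compared (11367 genes in all). The study asked how hepatic gene expression differs when *Txndc5*, which encodes a protein disulfide isomerase of the endoplasmic reticulum, is missing. Liver RNA was sequenced from male mice, as 3 pools of wild type (WT) mice, strain C57BL/6Rj, and 3 pools of *Txndc5*-deficient (KO) mice, strain C57BL/6JRj-Txndc5<em2Mdnp>/Ciba, with RNA of 3 mice in each pool. The KO line lacks exon 3 of *Txndc5* in every cell of the body, after CRISPR editing of zygotes, and descends from 1 founder male. Mice of both genotypes were 2 months old when they started 4 weeks of a purified chow diet, and they were fasted for 16 h before sacrifice. The mice were kept in a cycle of light and dark, and the hour of sacrifice is not given in the sources used here.

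The 9 genes sit just downstream of the circadian loop. In liver, the activators BMAL1 (encoded by *Arntl*) and CLOCK bind E-boxes in the promoters of *Dbp*, *Tef*, *Usp2*, *Ciart* and the *Bhlhe* genes, so that these transcripts rise and fall over the day. DBP, TEF and HLF form the PAR bZIP family, named for a proline- and acid-rich domain next to the basic leucine zipper. They activate genes through a sequence called the D-box, among them genes of drug and bile acid metabolism, and NFIL3 binds the same sequence as a repressor. A further sequence, the RORE, is bound by the activator RORα (encoded by *Rora*) and by the REV-ERB repressors (encoded by *Nr1d1* and *Nr1d2*), and it drives *Arntl* and *Nfil3*. Because the levels of such transcripts depend on the hour, a level in liver at a single hour is 1 point of a daily curve.

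The promoters of 4 of these genes are shown because they hold a letter-perfect E-box or RORE core, the sequences through which the loop acts. Windows of 300 bases, from 250 before to 50 after an annotated start, came from RefSeq on GRCm38, the assembly that mm10 stands for, and 8 of the 9 genes had at least 1. No window was at hand for *Bhlhe40*, and *Tef* had 2. The sequences read 5′ to 3′ on the strand of the gene, with the E-box CACGTG or the RORE core AGGTCA, on either strand, in capitals. The *Ciart* window is chr3:95882179-95882478 on the minus strand, the *Tef* windows are chr15:81802423-81802722 and chr15:81811164-81811463 on the plus strand, the *Bhlhe41* window is chr6:145865371-145865670 on the minus strand, and the *Nfil3* window is chr13:52980990-52981289 on the minus strand.
Ciart: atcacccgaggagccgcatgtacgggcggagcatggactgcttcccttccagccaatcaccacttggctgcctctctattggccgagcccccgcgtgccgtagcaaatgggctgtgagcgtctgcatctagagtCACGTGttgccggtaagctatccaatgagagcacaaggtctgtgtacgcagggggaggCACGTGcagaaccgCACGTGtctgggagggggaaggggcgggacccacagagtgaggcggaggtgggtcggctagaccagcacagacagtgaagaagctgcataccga
Tef, first start: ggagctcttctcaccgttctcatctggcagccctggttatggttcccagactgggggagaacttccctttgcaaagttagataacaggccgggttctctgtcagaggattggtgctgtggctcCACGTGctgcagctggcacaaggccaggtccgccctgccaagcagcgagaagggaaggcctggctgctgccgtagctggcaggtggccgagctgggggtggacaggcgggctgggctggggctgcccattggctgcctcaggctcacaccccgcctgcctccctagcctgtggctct
Tef, second start: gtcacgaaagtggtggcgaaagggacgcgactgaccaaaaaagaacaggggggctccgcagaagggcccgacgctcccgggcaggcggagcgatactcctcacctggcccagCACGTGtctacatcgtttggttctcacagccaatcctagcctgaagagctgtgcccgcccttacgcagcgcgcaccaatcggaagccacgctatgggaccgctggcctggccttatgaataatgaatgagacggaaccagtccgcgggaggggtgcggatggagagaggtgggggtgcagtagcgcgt
Bhlhe41: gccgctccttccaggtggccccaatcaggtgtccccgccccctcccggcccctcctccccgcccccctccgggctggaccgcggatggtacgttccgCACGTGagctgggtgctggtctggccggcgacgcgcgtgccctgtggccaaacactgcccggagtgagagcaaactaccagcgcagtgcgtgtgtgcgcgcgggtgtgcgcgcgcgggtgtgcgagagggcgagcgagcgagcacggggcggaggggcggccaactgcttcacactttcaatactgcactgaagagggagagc
Nfil3: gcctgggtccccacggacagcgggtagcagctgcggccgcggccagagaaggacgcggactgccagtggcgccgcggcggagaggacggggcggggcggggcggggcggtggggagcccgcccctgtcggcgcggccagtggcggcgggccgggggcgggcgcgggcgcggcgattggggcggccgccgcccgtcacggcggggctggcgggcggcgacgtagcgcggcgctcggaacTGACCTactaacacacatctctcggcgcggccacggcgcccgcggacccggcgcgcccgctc

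The *Ciart* window held 3 E-boxes. Their first bases lie at −116, −58 and −44, counted from the start site as base 1. Among 32851 windows of mouse genes, 29 (0.0883%) held 3 or more. These leave out chromosome 18, as do all counts below of windows and of genes with a window. Both *Tef* windows held 1 E-box, at −127 from the first start and at −138 from the second, and the *Bhlhe41* window held 1 at −153. An E-box on either strand was present in 7.15% of all windows. The windows of *Dbp*, *Hlf*, *Nfil3*, *Rora* and *Usp2* held none of these letters. Bases outside the windows were not searched. The windows of *Nfil3*, *Rora* and *Usp2* lie inside the listed span of the gene. For *Usp2* that span begins at 44067021 and the window at 44084670. The RORE core of *Nfil3* begins at −12, and 16.3% of all windows held that core. The 2 forms of the D-box searched, TTACGTAA and TTATGTAA on either strand, were in none of the 9 windows and in 1.06% of all windows. No 2 of the motifs overlapped in these windows. The windows were rich in G and C, from 60.3% in *Dbp* and *Rora* to 81.7% in *Nfil3*, against a median of 52.7% over all windows. A match of letters is not a measured binding site, and the data hold no measurement of binding. Of the 9104 compared genes with a window, 2.3% were higher in KO past a log2 ratio of 0.5. Their median log2 ratio of KO over WT was −0.05. Of the 1100 with an E-box, 2.91% were higher past it, with a median of −0.04. For the 83 with a D-box these values were 3.61% and −0.04, and for the 1426 with a RORE core 2.66% and −0.05. These differences were not tested.

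The table gives 1 value per gene and genotype, on the scale of reads divided by the size factor of the library, with the 3 libraries combined. That scale is called normalised reads here. The ratio between the 2 values is shrunken toward 1, so they are not plain means of the libraries. For *Arntl* the table gives 43.4 in WT and 21.8 in KO. The means of its reads recovered per library, described below, were 47.1 and 18.1. The table gives no value per pool. The ratios of the genotypes below are thus given here with no error and no test, except where reads per library could be recovered. In bulk liver, fewer cells of a type and less RNA per cell cannot be told apart. *Txndc5* itself had 2697 normalised reads in WT and 90.8 in KO, which is a log2 ratio of −4.89. A log2 ratio of at least 0.5 in either direction is called past the fold. Of the 11367 compared genes, 2.48% were higher in KO past the fold and 7.90% were lower, with a median log2 ratio of −0.05. Either way, 10.4% were past the fold.

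Of the 9 clock output factors, 5 were higher in KO past the fold, 0 were lower and 4 lay within it. *Bhlhe40*, *Ciart*, *Tef*, *Hlf* and *Usp2* were the 5, with log2 ratios from 0.59 to 0.73. *Dbp*, *Nfil3* and *Bhlhe41* lay between −0.07 and 0.18, and *Rora* was the lowest at −0.45. The median of the 9 genes was 0.59. Of the 8 with a mean of at least 100, which leaves out *Bhlhe41*, the same 5 were higher, where 1.87% of the 7063 genes of that level were higher past the fold and 3.99% were lower. The 5 ratios are given here with no spread between pools, and the genes were all read from the same 2 sets of pools. The authors' own p-values for this comparison were not used.

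**Figure D1:**
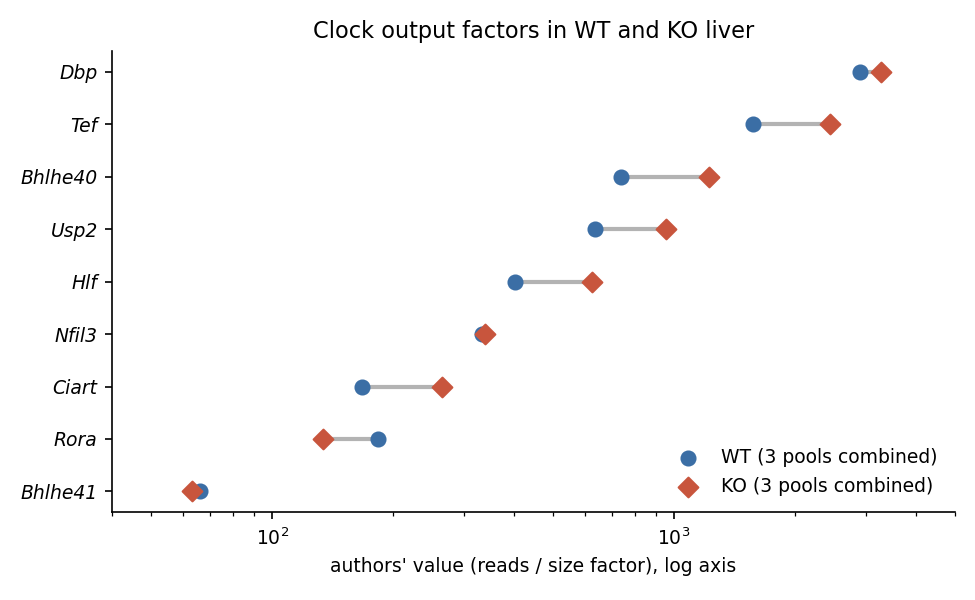
Normalised reads of the 9 clock output factors in WT and KO liver on a log axis, 1 point per gene and genotype, each the authors' value over 3 libraries, so no error bars can be drawn. The KO point lies clearly right of the WT point for *Tef*, *Hlf*, *Bhlhe40*, *Ciart* and *Usp2* and left of it for *Rora*.

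Among the PAR bZIP activators, *Tef* and *Hlf* were higher in KO past the fold and *Dbp* was not. *Dbp* (NCBI Gene 13170, chromosome 7, 45705100 to 45710203, GRCm38), the member with the steepest daily rhythm in liver, had 2899 normalised reads in WT and 3274 in KO, which is a log2 ratio of 0.18. Of the compared genes, 19.1% lay at least as far in that direction, so that *Dbp* was in the bulk of the distribution. *Tef* (NCBI Gene 21685, chromosome 15, 81802673 to 81826863), named thyrotroph embryonic factor, had 1573 in WT and 2448 in KO, 1.56-fold higher, and 1.12% of the compared genes lay as far. *Hlf* (NCBI Gene 217082, chromosome 11, 90336535 to 90390917), hepatic leukaemia factor, had 402 in WT and 625 in KO. Its ratio was also 1.56-fold, at a lower level than *Tef*, and the log2 ratios of both genes were 0.64.

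Per kilobase of the gene length listed by the authors, the order within the family was *Dbp*, *Tef* and *Hlf* in both genotypes. On that scale *Dbp* made up 79.6% of the summed level of the 3 genes in WT and 73.9% in KO. The share of *Tef* was 17.2% in WT and 21.9% in KO, and that of *Hlf* was 3.27% and 4.18%. The sum of the 3 was 2171 normalised reads per kilobase in WT and 2641 in KO, which is a log2 ratio of 0.28. The sum thus differed less than *Tef* and *Hlf* did, since most of it is *Dbp*.

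*Nfil3* (NCBI Gene 18030, chromosome 13, 52967209 to 52982878), the repressor that competes for the D-box, had nearly equal values. They were 333 normalised reads in WT and 339 in KO, which is a log2 ratio of 0.02, and 38.6% of the compared genes lay at least as far toward KO. Per kilobase, the sum of the PAR bZIP activators was 13.1 times the level of *Nfil3* in WT and 15.7 times in KO. The log2 difference between the 2 quotients was 0.26, slightly under the 0.28 of the activators alone.

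Of the E-box repressors, *Bhlhe40* and *Ciart* were higher in KO past the fold and *Bhlhe41* was not. *Bhlhe40* (NCBI Gene 20893, chromosome 6, 108660629 to 108666925), also called DEC1, encodes a basic helix-loop-helix protein that competes with BMAL1 and CLOCK at E-boxes. It had 737 normalised reads in WT and 1225 in KO, 1.66-fold higher, the highest log2 ratio of the 9 genes at 0.73. Only 0.686% of the compared genes lay as far. *Ciart* (NCBI Gene 229599, chromosome 3, 95878500 to 95882257), also called CHRONO, encodes a repressor that binds BMAL1. It had 167 in WT and 264 in KO, 1.58-fold higher, and 0.924% of the compared genes lay as far. It is the gene with 3 E-boxes in the window printed above. *Bhlhe41* (NCBI Gene 79362, chromosome 6, 145858243 to 145865420), the paralogue also called DEC2, had 66.1 in WT and 63.1 in KO, which is a log2 ratio of −0.07. Per kilobase, *Bhlhe40* stood 21.4 times above *Bhlhe41* in WT and 37.4 times in KO.

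*Rora* (NCBI Gene 19883, chromosome 9, 68653404 to 69388246) was the only one of the 9 genes with a log2 ratio under −0.1. It had 183 normalised reads in WT and 134 in KO, 1.36-fold higher in WT, and 9.55% of the compared genes lay at least as far in that direction. That ratio of −0.45 lay within the fold of 0.5. *Usp2* (NCBI Gene 53376, chromosome 9, 44067021 to 44095627) encodes a deubiquitinase whose transcripts follow the clock in many tissues. It had 637 in WT and 956 in KO, 1.5-fold higher, a log2 ratio of 0.59 that 1.57% of the compared genes reached.

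Per kilobase, the levels of all 9 genes in WT ran from *Dbp* at 1727 normalised reads per kilobase through *Tef* at 372, *Bhlhe40* at 237, *Usp2* at 194, *Nfil3* at 165, *Ciart* at 120, *Hlf* at 70.9 and *Rora* at 21.2 to *Bhlhe41* at 11. In KO the order was the same but for *Ciart*, at 189, which passed *Nfil3*, at 168. Without values per pool it is not known which neighbours in that order differ beyond their spread. The range from the highest to the lowest gene is far wider than any ratio between the genotypes.

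**Figure D2:**
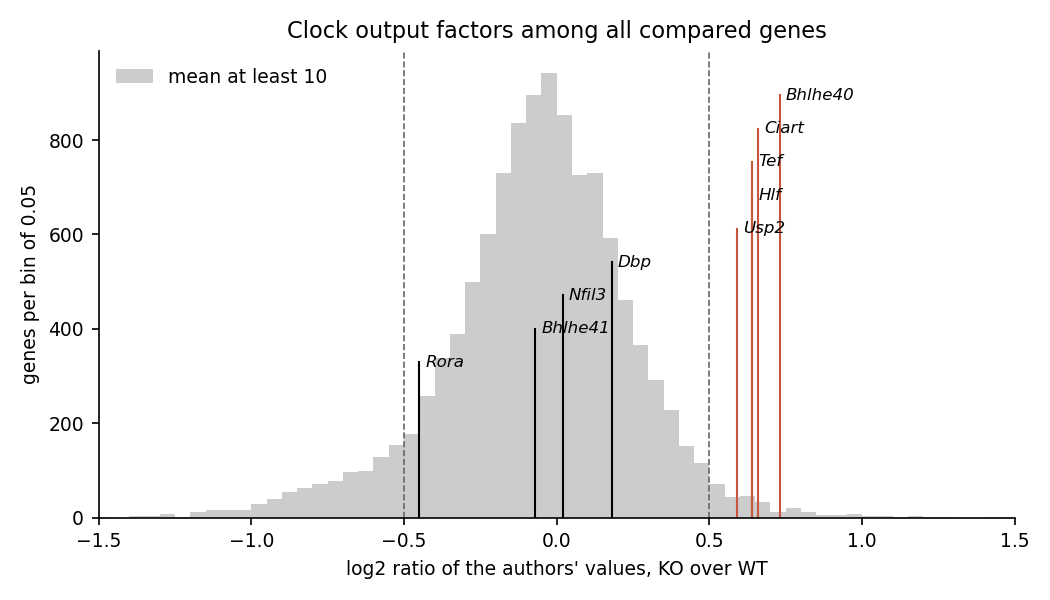
Histogram of the log2 ratios of KO over WT for the 11367 genes with a mean of at least 10 normalised reads, with a vertical line at each of the 9 clock output factors and dashed lines at the fold of 0.5, those of *Tef* and *Hlf* on top of each other and ratios beyond 1.5 not drawn. *Usp2*, *Tef*, *Hlf*, *Ciart* and *Bhlhe40* stand in the right tail, *Nfil3*, *Bhlhe41* and *Dbp* near the centre, and *Rora* toward the left.

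Exons of some of these genes overlap other genes in the GENCODE M21 annotation, and whether the counting used strand is not given in the sources used here. *Dbp* shares 539 exonic bases with *Sphk2* on the opposite strand, a gene with a mean of 2154 normalised reads and a log2 ratio of −0.34, so that part of the reads of *Dbp* is uncertain. *Bhlhe40* shares 118 bases with *0610040F04Rik*, which had a mean of 0.832. *Tef*, *Bhlhe41*, *Rora* and *Usp2* share between 82 and 1280 bases with genes that have no row in the table, and *Hlf*, *Nfil3* and *Ciart* share none.

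Reads of the single libraries could be recovered for weakly expressed genes, because reads are whole numbers and a low mean over 6 libraries leaves a single set of 6 numbers that gives it. *Bhlhe41* was the 1 clock output factor weak enough for this. The libraries so recovered carry a genotype and a size factor, the number their reads are divided by, but no pool number. The size factors spanned a 1.6-fold range, while the clean reads per library ran only from 44040160 to 46050030. The cause of that gap was not tested. In KO, in libraries whose size factors were 1.31, 1.04 and 0.886, *Bhlhe41* had 114, 65 and 34 reads, which are 86.9, 62.8 and 38.4 normalised reads. In WT, in libraries of 1.22, 0.879 and 0.818, it had 82, 64 and 49 reads, which are 67, 72.8 and 59.9 normalised reads. The 3 WT libraries lay close together, and the KO libraries spread from below to above all of them.

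The means of *Bhlhe41* were 62.7 ± 24.2 normalised reads in KO and 66.6 ± 6.45 in WT (SD, n = 3 libraries each), a difference smaller than the spread (two-sided exact permutation test, p = 0.8, where 0.1 is the smallest p that 3 against 3 allow). In limma, over the 3299 genes with recovered reads and a summed level of 60 to 400, the difference on the log2(normalised reads + 1) scale was −0.16 with an SE of 0.43 (adjusted p = 0.999). Of those 3299 genes limma called 1 (0.0303%), *Moap1*, which was looked up after its values were seen and is no clock gene, and 61 genes had an unadjusted p under 0.05. That call was lost when any 1 of 5 of the 6 libraries was left out. It was also lost when limma let the spread follow the level, a choice made after the data were seen, with 0 genes called and 54 at an unadjusted p under 0.05. Leaving out the KO library with the size factor of 0.886 turned the difference of *Bhlhe41* to 0.15, and leaving out the KO library of 1.31 took it to −0.43. Nothing in the labels says that the pools were drawn from separate litters or cages, so that the p-values measure the spread between these pools.

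**Figure D3:**
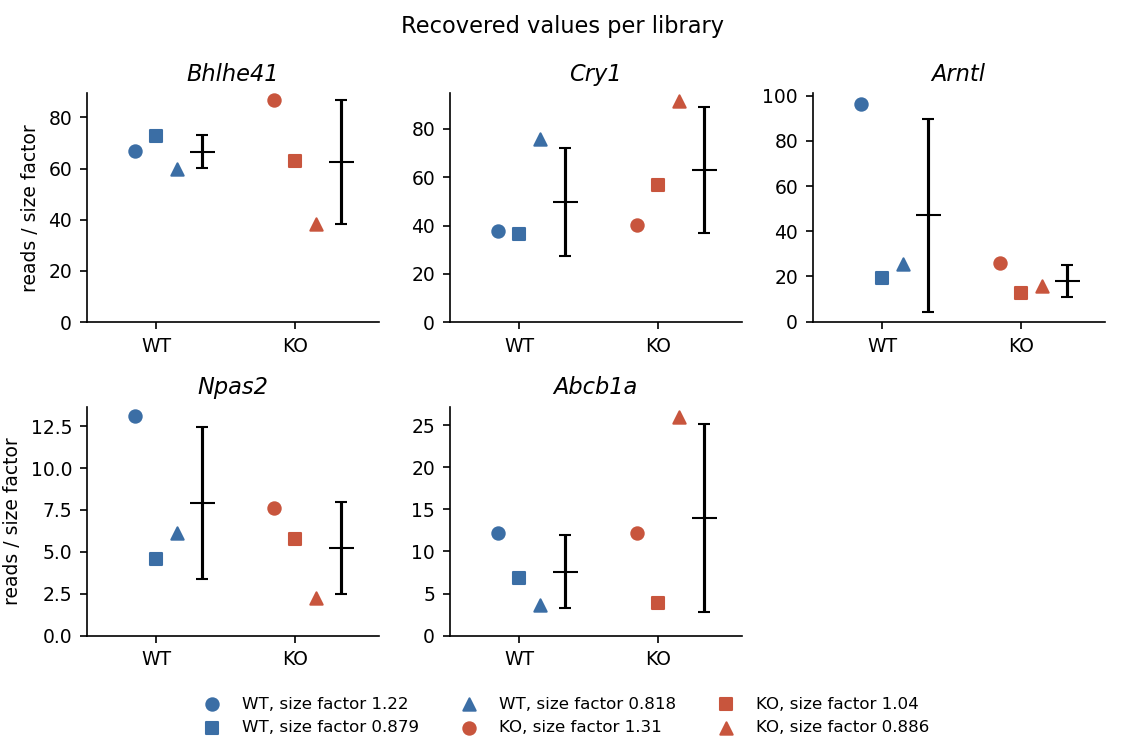
Normalised reads recovered in each of the 6 libraries for *Bhlhe41* and for genes of the surrounding lists, 1 point per library, with the mean and SD of each genotype (n = 3) as a cross bar and whiskers. The KO points of *Bhlhe41* run from 38.4 to 86.9 around WT points of 59.9 to 72.8, and 1 WT library stands far above the others for *Arntl*.

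The recovered genes also show how the table's values behave. In 53.7% of the 3299 genes the KO library of 1.31 was the highest of its genotype, and in 54.6% the WT library of 1.22 was. For genes whose recovered means differed by a log2 ratio over 0.5, the table's own log2 ratio was a median 0.71 of that of the recovered means, and 0.79 of it at sums of 300 to 400. The ratios of these weak genes in the table are thus drawn toward 0. For the 8 clock output factors above that range the shrinkage could not be measured.

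The loop that drives these genes was described by 12 genes, of which 11 had a mean of at least 10. Of the 11, 1 was higher in KO past the fold, 3 were lower and 7 lay within it, with a median log2 ratio of 0.05. *Per3*, a period gene driven through E-boxes, had 73.6 normalised reads in WT and 119 in KO, which is a log2 ratio of 0.69. *Arntl* had 43.4 in WT and 21.8 in KO, *Clock* had 186 and 98.9, and *Nr1d1* had 3497 and 2455. Their log2 ratios were −0.99, −0.91 and −0.51. Centring on the median of genes with a mean of at least 1 left 2 lower, since *Nr1d1* then lay within the fold. The place of *Arntl* among the 3 lower genes depends on the libraries included, since without 1 WT library the log2 ratio of its recovered means was −0.32, within the fold.

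Of the E-box genes in that list, *Per1*, *Per2*, *Cry1* and *Cry2* lay above 0 and within the fold, from 0.13 for *Per1* to 0.44 for *Per2*. *Nr1d2*, whose product represses through the RORE as that of *Nr1d1* does, had a log2 ratio of −0.36. *Nr1d1* and *Dbp*, both E-box genes and the most abundant per kilobase of their lists, had log2 ratios of opposite sign.

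For *Arntl*, whose reads could be recovered, the ratio moved with the libraries included. *Arntl* had 25.9, 12.6 and 15.8 normalised reads in the KO libraries of 1.31, 1.04 and 0.886 and 96.3, 19.3 and 25.7 in the WT libraries of 1.22, 0.879 and 0.818. The WT library of 1.22 stood far above all the others, and KO and WT overlapped among the other 5 libraries. The difference did not exceed the spread (two-sided exact permutation test, p = 0.3, n = 3 each), and limma gave −1.04 with an SE of 0.62 (adjusted p = 0.999). Without that WT library the log2 ratio of the means was −0.32 in place of −1.38. With the KO library of 1.31 left out as well, a choice made after the data were seen, it was −0.67, and the 2 KO libraries left (12.6 and 15.8) lay below the 2 WT libraries left (19.3 and 25.7). *Cry1* had 40.4, 57 and 91.5 in KO and 37.6, 36.4 and 75.8 in WT (exact permutation p = 0.5, n = 3 each). Its limma difference of 0.33 was 0.03 without the KO library of 0.886 and 0.67 without the WT library of 0.818. The genotypes overlapped for both genes. The libraries of 1.31 and 1.22 were the highest of their genotypes for *Arntl* but not for *Cry1*.

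Genes that PAR bZIP proteins or NFIL3 are known to control in liver were read from a list of 10, of which 8 had a mean of at least 10. Of the 8, 1 was higher in KO past the fold, 1 was lower and 6 lay within it, with a median log2 ratio of 0.22. Centring on the median of genes with a mean of at least 1 raised the higher genes to 3, since *Ppara* and *Abcb1a*, with a mean of 10.79, lay just within the fold. The recovered reads of *Abcb1a* gave a limma difference of 0.61, which was 0.03 without the KO library of 0.886 and 1.26 without the KO library of 1.04. *Cyp2a5*, a cytochrome P450 of coumarin metabolism, had 3162 normalised reads in WT and 5393 in KO, which is a log2 ratio of 0.77. *Cyp7a1*, the rate-limiting enzyme of bile acid synthesis, had 804 in WT and 374 in KO, which is a log2 ratio of −1.11. *Cyp2a5* has a near-identical copy, *Cyp2a4*, listed with a mean of 1.964, and reads shared by both could have been assigned to either. *Ppara*, the nuclear receptor of fasting, lay at 0.48, with 3501 in WT and 4872 in KO. *Alas1*, the first enzyme of haem synthesis, lay at 0.32, and *Por* and *Nr1i3*, which serve drug metabolism, both lay at 0.11. *Fgf21*, a hormone that liver secretes in fasting, lay at −0.36.

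Of 8 other rhythmic outputs of liver, 2 were higher in KO past the fold, 0 were lower and 6 lay within it, with a median log2 ratio of 0.00. *Wee1*, a cell cycle kinase gene with E-boxes, had 54.1 normalised reads in WT and 126 in KO, which is a log2 ratio of 1.22. *Klf10*, a zinc finger factor driven by the clock, had 133 and 233, a log2 ratio of 0.80. *Noct*, which encodes nocturnin, lay at 0.44, and *Elovl3* and *Klf9* lay at −0.33 and −0.37. The outputs thus lay on both sides of 0.

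**Figure D4:**
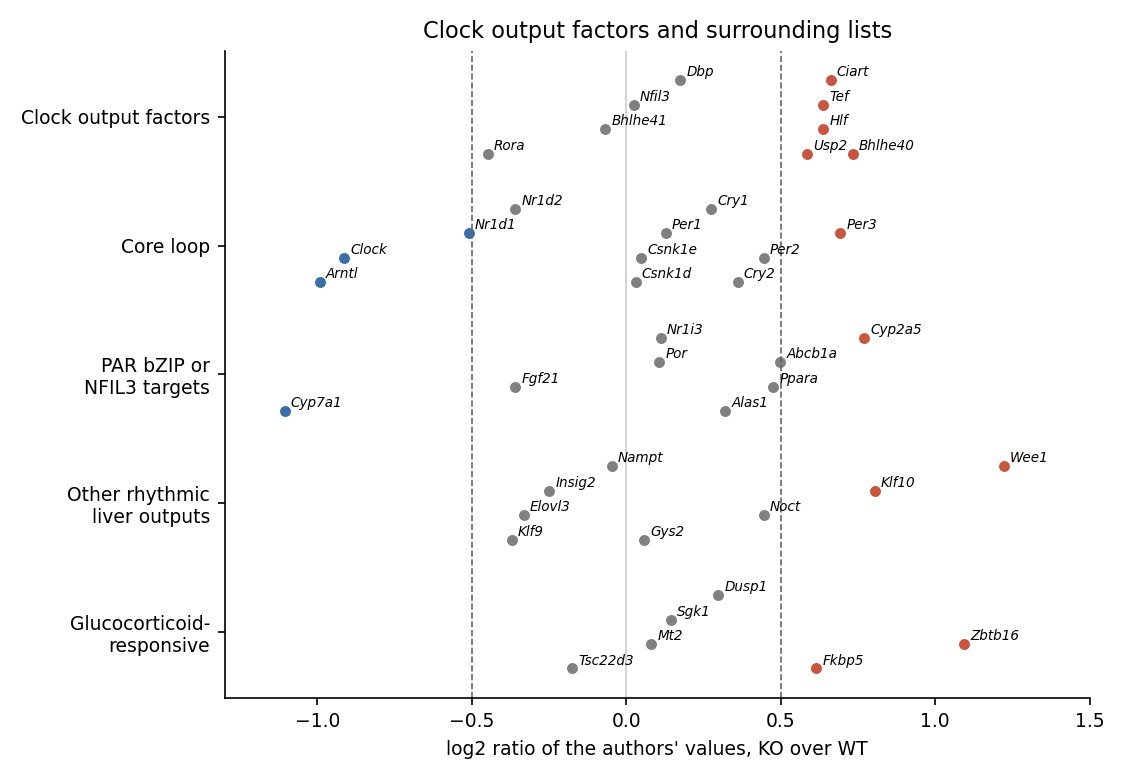
Log2 ratios of KO over WT for the clock output factors and 4 surrounding lists, 1 point per gene with a mean of at least 10 normalised reads, red where higher and blue where lower past the fold of 0.5 (dashed lines). In the clock output factors 5 points lie right of the fold and none left of it, while the core loop has 1 to the right and 3 to the left.

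The tissue label was checked on markers. *Alb*, the albumin gene of hepatocytes, had 1329546 normalised reads in WT and 1332576 in KO, and the median log2 ratio of 7 hepatocyte genes was −0.10, with *Apob* the 1 past the fold at −0.52. Erythroid genes moved with genotype in the same direction as the 5 higher clock output factors. All 6 had log2 ratios over 0, from 0.40 to 1.47, 4 of the 6 were past the fold, and their summed level was 118830 in WT and 180430 in KO. None of the 6 was listed at 0 in either genotype, and their part in the results above was not tested. Of the other markers, 1 of 5 Kupffer cell genes, 0 of 4 sinusoidal endothelial genes, 2 of 5 stellate cell and fibroblast genes and 1 of 4 cholangiocyte genes were higher past the fold, and 1 stellate cell and 1 lymphocyte gene were lower. The cholangiocyte gene was *Epcam*, with a mean of 10.22, and the other cholangiocyte genes lay below 0. Its recovered values were 25.9, 9.65 and 4.52 in KO and 9.8, 10.2 and 1.22 in WT. Of the 4 lymphocyte genes, 2 had a mean of at least 10. The summed level of the 4 was 74.22 in WT and 52.65 in KO. For *Cd3e* and *Ptprc* among them, 1 WT library stood well above the other WT libraries. The libraries held 44040160 to 46050030 clean reads, of which 91.63% to 93.66% mapped, and the ribosomal share was 0.67% in WT pool 1, 0.69% in WT pool 5 and 0.26% to 0.40% in the other 4 pools.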

How the data were processed

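The samples were 6 RNAseq libraries of pooled liver RNA, 3 of WT and 3 of KO mice, grouped by their labels. A sequencing service filtered, mapped and counted the reads. The submitters' processing notes name mm10, HISAT2, StringTie, Cufflinks, GATK, Bowtie2 and RSEM with no role, and versions are not given in the sources used here. The authors deposited, for 16123 genes, an expression signal per genotype on the scale of reads over DESeq2 size factors, with the 3 libraries combined and the ratio shrunken toward 1. They also deposited the count of clean reads and the percent of mapped and of ribosomal reads per library. Their columns of log2 ratios, p-values and direction for the same comparison were not used. No value columns of other samples were present (0).

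The planned comparison assumed a value per library where the table held one. With 1 value per genotype, the log2 ratio of the 2 values was given with no test, and genes with a mean of at least 10 and a log2 ratio of at least 0.5 were counted in each direction. Reads per library were recovered by enumerating all sets of 6 whole numbers that give the midpoint of the 2 values within 2 times its rounding, for sums of normalised reads up to 600. The worth of a read was set by 1-read genes whose value recurred in 20 genes or more. For sums up to 400, 8053 of 8081 genes (99.7%) were left with 1 set, with 84608 to 196609 reads per library. Among the genes with sums of 60 to 400, the means went in the table's direction in 619 of 619 past the fold. Weak genes carry a large counting error. When tested on simulated data, 383 of 385 genes were resolved, all 383 with the right reads. The recovered libraries were compared with exact permutation tests and with limma 3.58.1 (R 4.3.3) with Benjamini-Hochberg adjustment. On simulated data with 3-fold changes limma called 170 of 200 changed genes and 12 unchanged ones. There, 4.9% of the unchanged ones had an unadjusted limma p under 0.05. In the recovered libraries, 1.85% of the 3299 genes did. That the rate of calls on simulated data holds for the recovered libraries was not tested.

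Gene positions and windows came from RefSeq on GRCm38 and exons from GENCODE M21. The genes named are the 9 clock output factors, *Txndc5*, and genes of each list past the fold, and other genes of the lists are named after their values were seen. Some genes of the loop list are not reported here. The members and lists were chosen with earlier results of these data known. Alternatives were other pseudocounts, centring, thresholds and left-out libraries.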

Additional observations from a re-analysis of the deposited data

How the results depend on the processing

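The log2 ratios of the 9 clock output factors kept their sign in all 36 values over 4 alternatives (pseudocounts of 1 and 0.1, and centring on the median of genes with a mean of at least 1 or at least 100), with a largest shift of 0.05. *Dbp* went from 0.18 to 0.22 under the first centring. These alternatives could not have turned a sign. The pseudocounts are small beside the values, and the largest shift is under the distance of *Bhlhe41* (−0.07) from 0. They leave the spread between pools untouched. The 5 genes higher past the fold became 0 at a log2 ratio of at least 1, and the genes lower became 1, *Rora*, at a log2 ratio of at least 0.3. Over all compared genes, the 282 higher and 898 lower became 1073 and 2061 at a log2 ratio of at least 0.3. At a log2 ratio of at least 1 they became 18 and 84, and at a mean of at least 100 they became 132 and 282. With no filter on low values, 456 were higher and 1177 lower. Fewer or more genes are counted by construction in each of these. Centring on the median of genes with a mean of at least 1, the only centring applied to the lists, raised the PAR bZIP or NFIL3 targets higher past the fold from 1 to 3 and lowered the loop genes lower past it from 3 to 2, without *Nr1d1*. Leaving out 1 library at a time moved the difference of *Bhlhe41* in limma between −0.43 and 0.15, the latter of the opposite sign and without the KO library of 0.886, and the number of genes limma called between 0 and 1. Letting the spread follow the level in limma, chosen after the data were seen, gave 0 calls. Leaving out both libraries with the largest size factors, also chosen then, moved the log2 ratio of the recovered means from −0.09 to −0.39 for *Bhlhe41* and from −1.38 to −0.67 for *Arntl*. The cause was not tested. No paired analysis was possible because the groups share the pool number 2 alone and the table's columns carry no pool number. The alternatives set out for counts per library (DESeq2's test, a replicate block and left-out libraries for every gene) were not run on the table's 2 values. Depth limits the recovered values, since *Bhlhe41* rests on 408 reads in 6 libraries.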

Other observations

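Genes that respond to glucocorticoid hormones, whose blood level also follows the hour and fasting, were read from a list of 6. Of these, 2 were higher in KO past the fold, 0 were lower and 4 lay within it, with a median log2 ratio of 0.22 against −0.05 over all compared genes. *Zbtb16*, a zinc finger repressor, had 90.4 normalised reads in WT and 193 in KO, which is a log2 ratio of 1.09. *Fkbp5*, a chaperone of the glucocorticoid receptor, had 593 and 908, a log2 ratio of 0.61. *Dusp1*, *Sgk1* and *Mt2* lay at 0.30, 0.14 and 0.08, and *Tsc22d3*, a direct target of the receptor, lay at −0.17. None of these ratios was tested here.

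Among the weakly expressed genes near the loop, *Npas2*, the paralogue of *Clock*, had 7.62, 5.79 and 2.26 normalised reads in KO (libraries whose size factors were 1.31, 1.04 and 0.886) and 13.1, 4.55 and 6.11 in WT (libraries of 1.22, 0.879 and 0.818, two-sided exact permutation test, p = 0.5, n = 3 each). *Abcb1a*, which encodes a drug efflux pump, had 12.2, 3.86 and 26 in KO and 12.2, 6.82 and 3.67 in WT (exact permutation p = 0.5, n = 3 each). The genotypes overlapped for both genes.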
